A study of Homo sapiens with 7 samples.

Results

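V+VI is the name the authors gave to an interaction cluster of 50 kb genome bins in the untreated DNMT1-AID library, from a deposited k-means clustering. Members were chosen by the cluster names given for that measured library: they are the bins inside the deposited intervals of that name, matched by chromosome and start to the table of cluster codes. There were 13454 such bins among 46042 clustered bins (29.2%), and they covered 672.7 Mb on 21 of 22 autosomes. The other names were A1 (3261 bins), A2 (12091 bins), B2/B3 (16954 bins) and B4 (282 bins), and the sources used here do not say what V and VI stand for. Because the members were chosen by that clustering, the codes, positions and borders below describe the clustering and test nothing.

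All 7 libraries came from DLD-1, an established human colorectal adenocarcinoma line, and every line carried DNMT1 fused to an auxin-inducible degron, a tag that lets auxin trigger removal of the protein. DNMT1-AID cells were left untreated, given auxin for 4 d or for 10 d, or given auxin for 4 d and then washed and grown without it for 4 d. Cells that also lacked DNMT3B were left untreated or given auxin for 4 d or 10 d; the untreated one is titled as a knockout while its genotype label names the degron alone. With 1 library in each group, replicates against which to set a difference were lacking. The libraries held 27345260 (washout) to 222645438 contacts (DNMT1-AID at 4 d), and the clustered one held 114710963.

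Hi-C joins DNA fragments that lie close together in the nucleus, so the count of joined pairs measures how often stretches of the genome meet. Chromatin separates into A compartments, which are rich in genes and active marks, and B compartments, which are gene-poor and often lie at the nuclear lamina or around nucleoli. DNMT1 copies DNA methylation onto newly made strands and DNMT3B can add it to unmethylated DNA, mainly at CpG, a C followed by a G. Clusters of CpG at promoters, called CpG islands, are usually free of methylation.

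The promoters below show how widely CpG content ranged among genes that lie in V+VI bins. They are the only 2 colon epithelium markers measured here, of 7 in V+VI, and, of 4 DNA methylation factors in V+VI, those with the lowest and highest ratio of observed to expected CpG. Each is the 250 bases before the start site, 5′ to 3′ on the gene's strand, from RefSeq on GRCh38.p14, with every CpG in capitals.
GPA33 (chr1:167090378-167090627, minus strand): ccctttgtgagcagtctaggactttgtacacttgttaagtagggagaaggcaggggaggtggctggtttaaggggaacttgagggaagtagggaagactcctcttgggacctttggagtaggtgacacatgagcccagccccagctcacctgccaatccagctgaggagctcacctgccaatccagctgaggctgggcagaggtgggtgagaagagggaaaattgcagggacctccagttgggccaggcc
FABP1 (chr2:88128063-88128312, minus strand): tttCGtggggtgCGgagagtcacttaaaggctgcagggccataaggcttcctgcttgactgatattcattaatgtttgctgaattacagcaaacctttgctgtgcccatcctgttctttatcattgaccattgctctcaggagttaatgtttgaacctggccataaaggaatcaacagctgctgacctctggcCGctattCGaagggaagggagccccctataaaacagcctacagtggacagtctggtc
TDG (chr12:103965622-103965871, plus strand): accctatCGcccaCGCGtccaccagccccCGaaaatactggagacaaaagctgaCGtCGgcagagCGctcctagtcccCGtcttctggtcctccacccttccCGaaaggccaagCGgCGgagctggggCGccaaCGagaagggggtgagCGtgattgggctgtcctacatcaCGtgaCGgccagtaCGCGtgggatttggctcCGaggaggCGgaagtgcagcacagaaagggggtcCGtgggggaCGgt
HELLS (chr10:94545538-94545787, plus strand): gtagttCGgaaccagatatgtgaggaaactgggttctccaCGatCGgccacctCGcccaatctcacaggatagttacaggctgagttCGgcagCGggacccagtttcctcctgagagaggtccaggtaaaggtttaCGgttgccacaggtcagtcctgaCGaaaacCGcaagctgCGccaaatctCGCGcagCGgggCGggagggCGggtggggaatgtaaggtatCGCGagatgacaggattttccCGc
GPA33 encodes a surface glycoprotein of intestinal epithelium, and its stretch held 0 CpG. FABP1, a fatty acid binding protein of liver and gut, had 4. TDG, a glycosylase that removes oxidised forms of methylcytosine, had 22, and HELLS, a chromatin remodeller needed for normal DNA methylation, had 18. GPA33 and FABP1 lay in bins of code 4 and TDG and HELLS in bins of code 3, codes that are described next. The lists did not divide in that way: MBD2, another methylation factor, lay in code 4 and CDH17, another colon marker, in code 3.

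The name joins exactly 2 of the 9 clusters in the deposited column of 9 codes. Code 3 held 6937 bins (51.6%) and code 4 held 6517 (48.4%), and neither code occurred outside the name. A2 joins codes 6 and 7, B2/B3 joins codes 0, 1 and 2, and A1 and B4 hold a single code each (8 and 5). The deposited list has 2848 V+VI intervals because it is cut wherever the code changes; joined, they gave 2141 unbroken runs.

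Codes 3 and 4 lay in different parts of the arms. Code 3 bins lay a median of 72.5 Mb from the centromere (5th to 95th percentile 39.1 to 121 Mb), and code 4 bins a median of 23.3 Mb (4.53 to 47.9 Mb). Within 40 Mb of the centromere lay 84.9% of code 4 but 5.58% of code 3. Code 3 made up 0.0863% of V+VI bins at 0 to 10 Mb and 1.16% at 10 to 20 Mb. Its share was 17.8% at 30 to 40 Mb, 49.3% at 40 to 50 Mb and 84.0% at 50 to 60 Mb, and was 99.3% at 70 to 80 Mb. The change from one code to the other thus fell mostly between 30 and 60 Mb.

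**Figure D1:**
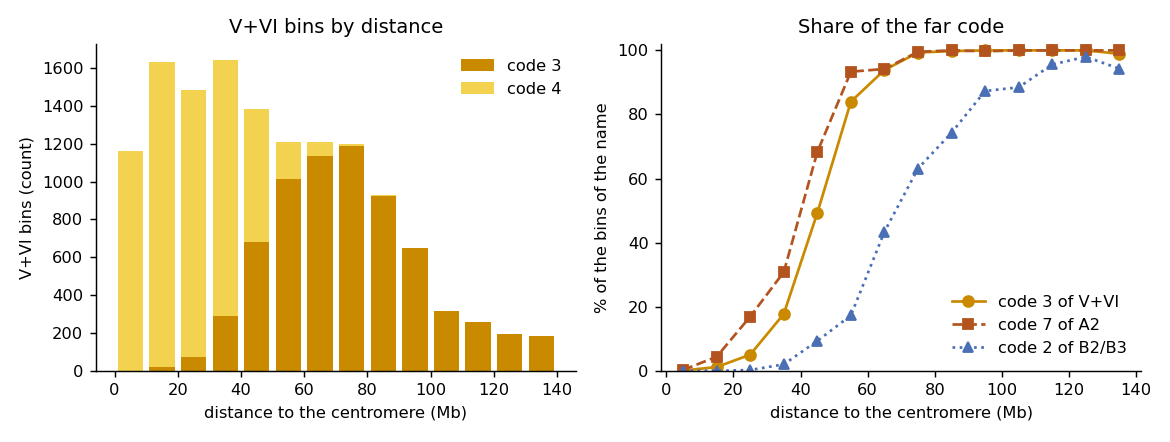
Left, V+VI bins (count) in 10 Mb steps of distance to the centromere, split into codes 3 and 4. Right, the share of bins of each name in its most distant code (code 3 of V+VI, code 7 of A2, code 2 of B2/B3) in the same steps; the V+VI line goes from 17.8% at 30 to 40 Mb to 84.0% at 50 to 60 Mb.

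The order held within arms. In 21 arms with at least 20 bins of each code, the code 3 median was farther from the centromere in 21 of 21. With a single best-placed dividing point in each arm, 93.5% of the bins of these arms together lay on their own code's side, and the lowest share was 85.6% on 7p. The point was chosen on these same bins, so the share describes the fit and tests nothing. On 18q it made no division: it fell at the farthest code 4 bin (61.2 Mb), with all 21 code 3 bins on the wrong side. The 93.9% of 18q is thus its code 4 share. Over the 21 arms the point lay between 18.4 Mb (2p) and 62.0 Mb (15q), with a median of 41.2 Mb. Overlap was small on 2p, where 1 bin of 276 was on the wrong side, and larger on 5q, where 77 of 937 were. But 40.55 Mb of 2p (chr2:31500001-72050000) had no code, and its nearest code 3 bin lay 61.7 Mb from the centromere. Where the codes change on 2p, and so its point of 18.4 Mb, could therefore not be placed closely. The longest reach of code 4 was a bin 131 Mb from the centromere on 5q, and the nearest code 3 bin lay 9.93 Mb away on 10q.

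The other names divide in a like way. In A2, code 6 had a median distance of 20.02 Mb and code 7 of 67.5 Mb. In B2/B3, code 1 had a median of 19.98 Mb, code 0 of 50.5 Mb and code 2 of 85.9 Mb. So each of the large names joins clusters that differ in distance, and V+VI shares this with its neighbours rather than standing apart by it. The deposited order column sorts bins by code and, within a code, by distance, with no backward step above 50 kb in codes 3 and 4. Cut into 5 equal parts, that order went in code 3 from a median distance of 44.7 Mb to 108 Mb; in code 4 it went from 6.88 to 42.8 Mb.

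The codes also differed between arms. Code 3 was absent from 14 of 38 arms, of which the longest spans 50.75 Mb. It held most V+VI bins in 1 of 21 arms under 80 Mb and in 14 of 17 arms of at least 80 Mb. On 1p, where it held 48.0%, the outer 41.75 Mb had no code. Among arms under 80 Mb, 7p, 6p and 17q still had 115, 154 and 51 code 3 bins. The part of arm length in the place of the codes was not tested.

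V+VI took a median of 28.6% of an arm's clustered bins. The lowest shares were 4.60% on 19p, 14.2% on 22q, 14.2% on 17q, 16.01% on 21q and 17.3% on 20q. The highest were 40% on 7p, 39.96% on 20p, 38.2% on 5q, 36.6% on 3q and 34.7% on 1q. Across the 38 arms the V+VI share had a Pearson correlation of -0.76 with the A1 share and of 0.57 with arm length, as a description only, since the shares of an arm sum to a whole.

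**Figure D2:**
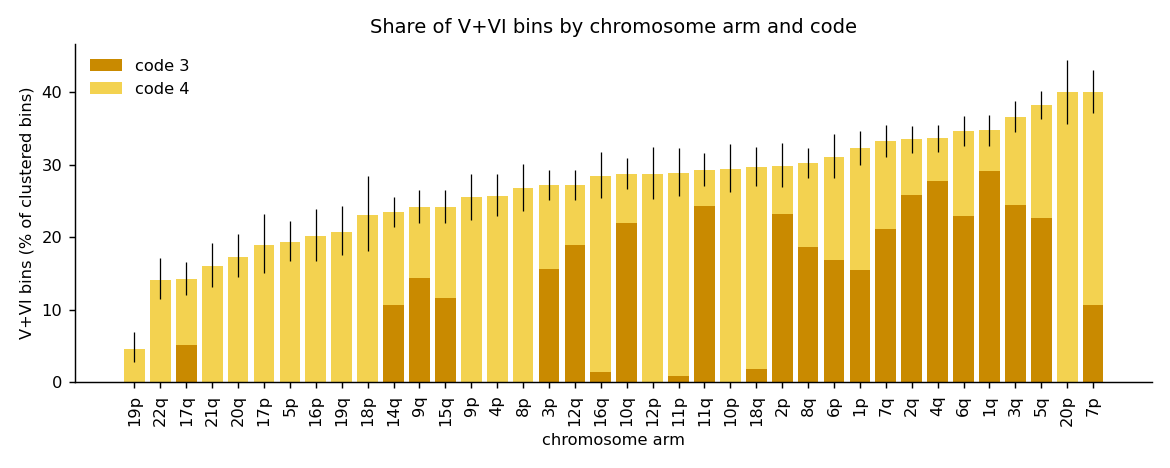
V+VI bins as a share of clustered bins (%) on each of 38 chromosome arms, ordered by that share and split into codes 3 and 4; lines are 95% exact binomial intervals, which treat bins as independent although neighbours are not. The share goes from 4.60% on 19p to 40% on 7p, and code 3 is absent from 14 arms.

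Along an arm, V+VI was spread with a small tilt away from the centromere. The median relative position, from 0 at the centromere to 1 at the arm end, was 0.549 for V+VI and 0.519 for all clustered bins. From the centromere outward, V+VI took 25.1%, 27.96%, 30.3%, 32.5% and 29.1% of clustered bins in 5 successive equal parts of the arm. It was less frequent at both ends: 8.61% of V+VI bins lay within 10 Mb of the centromere, against 10.3% of all clustered bins, and 11.2% lay within 10 Mb of the arm end, against 13.7%. B2/B3 was below all clustered bins at both ends too, with 9.58% near the centromere and 10.6% near the arm end. A2 was above them at both, with 12.6% and 14.3%. B4 had 43.3% of its bins within 10 Mb of the centromere. A1 differed most at the arm end, with 36.0% of its bins within 10 Mb of it.

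The median V+VI run was 3 bins (150 kb), 648 runs (30.3%) were a single bin, and the longest was 58 bins (2.9 Mb). Single-bin runs were more frequent in A1 (38.2%), A2 (39.5%) and B4 (41.7%), where the median run was 2 bins. They were less frequent in B2/B3 (24.7%). Runs of at least 10 bins numbered 460 and held 61.5% of the bins, and 141 runs of at least 20 bins held 29.4%. B2/B3 runs had a median of 5 bins and reached 6450 kb, and 65.9% of B2/B3 bins lay in runs of at least 20. A2 runs had a median of 2 bins but reached 6400 kb, with 62.1% of bins in runs of at least 20. V+VI thus had fewer of its bins in long runs than either. Of the V+VI runs, 798 held code 3 alone, 1093 code 4 alone and 250 (11.7%) both.

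Most changes of cluster along the chromosomes had V+VI on one side. There were 4661 borders between directly adjacent bins of different names, and V+VI was on one side of 3947 (84.7%). It met B2/B3 at 2107 and A2 at 1772. A2 met B2/B3 directly at only 25 (0.536%), although these are the most frequent names beside V+VI. A1 met A2 at 649 borders and V+VI at 1. Of all borders, then, those of A1 were mostly with A2, and those of B2/B3 with another name mostly with V+VI. This describes the clustering and is no support for calling V+VI intermediate.

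The pairing followed distance to the centromere as well. Code 3 met code 7 of A2 at 554 borders and code 6 at 248, and in B2/B3 it met code 0 at 552, code 2 at 285 and code 1 at 0. Code 4 met code 6 at 929 and code 7 at 41, and in B2/B3 code 1 at 724, code 0 at 534 and code 2 at 12. Codes 3 and 4 met each other at 707. B4 is a small cluster, and its 67 borders with V+VI were 64 with code 4 and 3 with code 3.

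**Figure D3:**
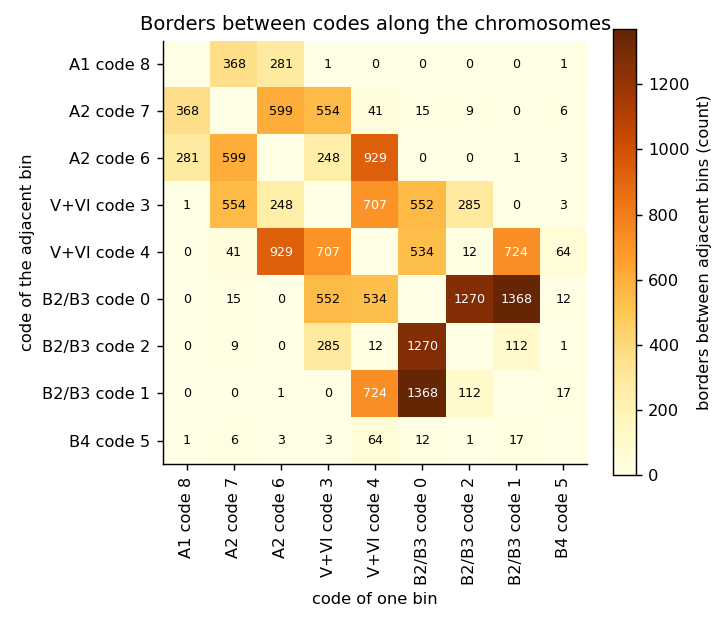
Counts of borders between directly adjacent 50 kb bins of different codes, with each code's name; the map is symmetric and its diagonal is left empty. Cells between A2 and B2/B3 codes hold 0 to 15 borders, while code 4 of V+VI has 929 with code 6 of A2 and 724 with code 1 of B2/B3.

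Run length differed with what lay on either side. Runs with B2/B3 on both sides were the most common, 729 (34.0%), with a median of 3 bins. Runs with A2 on both sides numbered 592 (27.7%) but were short, with a median of 1 bin; 55.6% were a single bin, and they held 10.2% of V+VI bins. Runs that lay between A2 and B2/B3 numbered 480 (22.4%), had a median of 8 bins and held 36.7% of the bins, and 1.67% were a single bin. The bins therefore divided about equally between passages from A2 to B2/B3 (4944 bins) and islands within B2/B3 (4876 bins), with few inside A2 (1378 bins). Of the remaining run ends, 334 met bins with no code.

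The deposited table also gives clusterings into other numbers of clusters. With 3 clusters, 94.4% of V+VI bins shared a code, and 65.8% of that code's bins were V+VI. With 4 clusters these were 90.003% and 63.8%, and with 5 clusters 86.0% and 80.6%. So V+VI was mostly a single group in the coarse clusterings. With 6 clusters 2 codes held 58.6% and 31.6% of them, and with 7 clusters 59.0% and 31.5%; V+VI made up 45.8% and 45.9% of the code with the smaller share. With 8 clusters 2 codes with a V+VI majority held 92.8%, and with 10 clusters 2 such codes held 98.9%. With 20 clusters 5 such codes held 90.9%, and with 64 clusters 14 held 81.4% while 36 codes had some V+VI bin. V+VI was thus held mostly by 2 codes from 6 to 10 clusters and by more codes beyond that.

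The bins that left the main group at 5 clusters lay more often at the ends of runs. Of V+VI bins, 980 joined the code that holds most of A2 and 905 joined the codes of B2/B3. Bins at an end of a run made up 44.7% of the former and 62.3% of the latter, against 22.8% of the 11569 that stayed. Gene density was 7.86 protein-coding genes per Mb in those that joined A2 and 6.14 in those that stayed. In the B2/B3 codes it was 4.67 (736 bins) and 3.20 (169 bins).

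V+VI bins held 4135 protein-coding genes, 6.15 per Mb, when each gene was placed in the bin of its leftmost coordinate in RefSeq on GRCh38, the assembly of hg38. A1 had 25.6 genes per Mb, A2 9.77, B4 18.3 and B2/B3 1.72, and all clustered bins 6.92. A2 was thus 1.59-fold denser than V+VI, and V+VI 3.58-fold denser than B2/B3. The density of V+VI lay between those of A2 and B2/B3 on 21 of 21 chromosomes. It ranged from 1.82 genes per Mb on chromosome 22 to 20.4 on chromosome 19, where zinc finger genes lie in arrays, and the next highest was 8.07. On chromosome 9 it came close to A2, at 6.42 against 6.63. These counts have no replicate, and bins in a row are not independent, so no test was made.

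**Figure D4:**
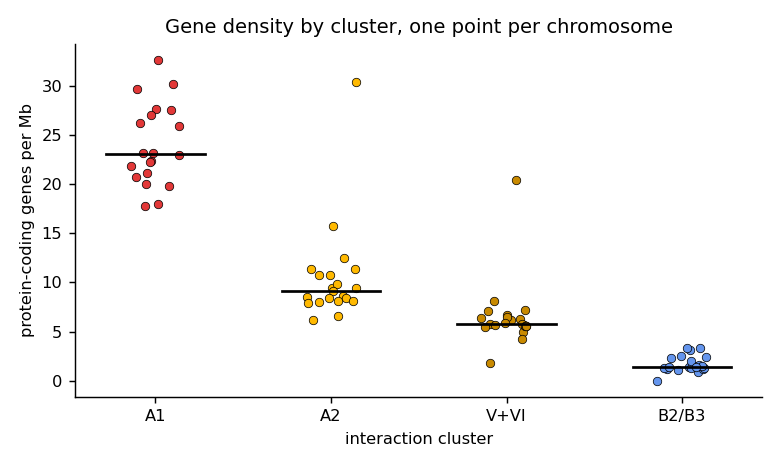
Protein-coding genes per Mb in bins of 4 clusters, with 1 point per chromosome and lines at the medians. V+VI points lie between 1.82 (chromosome 22) and 20.4 (chromosome 19), and on each of 21 chromosomes V+VI lies between A2 and B2/B3.

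V+VI genes made up 26.0% of the 15931 genes in clustered bins, less than the 29.2% of bins. That deficit did not hold when a gene was counted in every bin it overlaps, which gave 29.4%. Counted in that way V+VI had 16.5 genes per Mb, A2 21.6 and B2/B3 8.09, so the order stayed and the ratios shrank. Genes in V+VI were long: the median span was 40.3 kb, against 14.7 kb in A1, 29.96 kb in A2 and 44.7 kb in B2/B3, and 25.4% exceeded 100 kb. Of V+VI bins, 74.1% held no gene's leftmost coordinate, against 63.1% in A2 and 92.6% in B2/B3. For every protein-coding gene there were 1.07 annotated long noncoding RNA genes in V+VI, 0.788 in A2 and 2.55 in B2/B3.

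Density inside runs differed by side in the bin next to the border. Each bin was counted from every A2 or B2/B3 border of its run, so the profiles are not separate sets of bins. Bins of runs between A2 and B2/B3 enter both, and bins of runs with the same name on both sides enter from each end. Short runs drop out with distance, so the mix of runs changes along each profile. In the first bin from an A2 border it was 7.56 genes per Mb, then 7.32 at 50 to 150 kb, 6.73 at 150 to 250 kb and 5.63 at 250 to 500 kb. It was 4.98 at 500 to 1000 kb and 4.42 beyond. From a B2/B3 border it began lower, at 5.35 genes per Mb, was 6.65 at 50 to 150 kb and 6.23 at 150 to 250 kb. It was 5.65 at 250 to 500 kb, near the A2 side, 5.73 at 500 to 1000 kb, above the A2 side, and 4.69 beyond. Runs between A2 and B2/B3 had 6.85 genes per Mb, runs inside B2/B3 5.29 and runs inside A2 5.22. The short insertions inside A2 were thus no denser than those inside B2/B3. Runs next to B4 were dense but few: 17 runs with B4 on both sides had 30.3 genes per Mb over 35 bins.

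Code 3 had 6.47 genes per Mb and code 4 had 5.80, and code 3 was the denser on 11 of 15 chromosomes with at least 50 bins of each. The median gene spanned 43.2 kb in code 3 and 36.4 kb in code 4.

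Promoters of V+VI genes resembled those of A2 rather than lying midway to B2/B3. A promoter was called CpG-rich where CpG observed over expected (the CpG count times the length over the product of C and G counts) was at least 0.6 in the 300 bases from 250 before to 50 after the start site. Of 15099 genes with such a sequence, 12755 lay in clustered bins; chromosome 8 was not used here. CpG-rich promoters made up 69.6% of 3390 in V+VI (95% exact binomial interval 68.0 to 71.2%), 70.1% of 4707 in A2 and 73.4% of 3309 in A1. In B2/B3 they made up 37.3% of 1128 (34.5 to 40.2%). The median ratio was 0.788 in V+VI, 0.785 in A2 and 0.390 in B2/B3. V+VI had the higher share than B2/B3 on 13 of 13 chromosomes with at least 20 promoters in each, and than A2 on 10 of 20. So V+VI lay below A2 in gene density on 21 of 21 chromosomes but below it in the CpG share of promoters on only part of them. By code, 72.5% of code 3 promoters and 65.8% of code 4 promoters were CpG-rich, and code 3 was higher on 9 of 13 chromosomes.

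**Figure D5:**
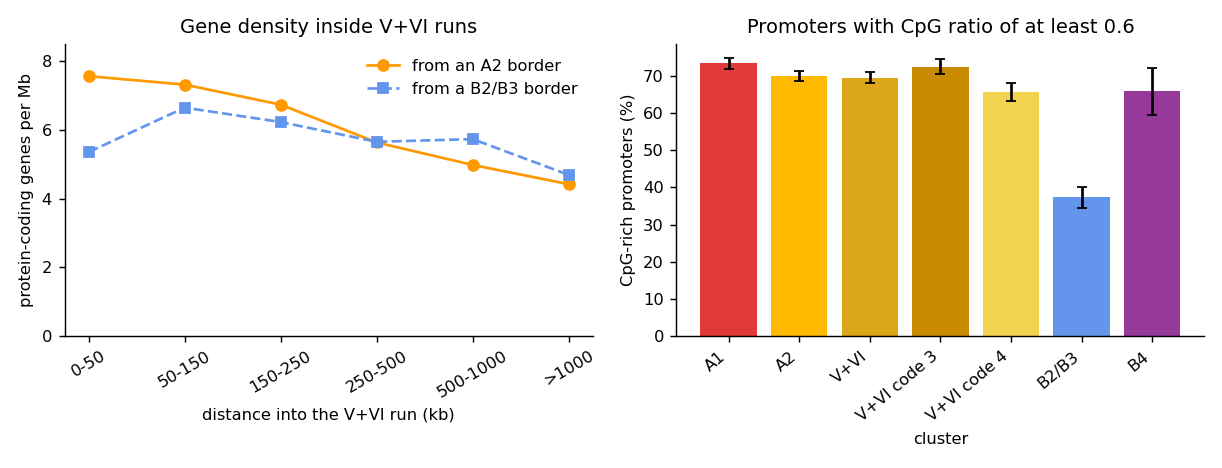
Left, protein-coding genes per Mb by distance (kb) into V+VI runs from an A2 or a B2/B3 border, from 7.56 to 4.42 on the A2 side. Each bin is counted from every such border of its run, so the lines share bins. Right, share of CpG-rich promoters (%) by cluster with 95% exact binomial intervals, 69.6% in V+VI and 37.3% in B2/B3.

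Among the printed promoters, the ratio was 0 for GPA33, 0.374 for FABP1, 0.737 for TDG and 0.908 for HELLS. TET2, which oxidises methylcytosine, had 0.769, and MBD2, which binds methylated CpG, had 0.897. The 4 methylation factors were thus CpG-rich and the 2 colon markers measured were not; the other 5 colon markers in V+VI were not measured.

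The longest run, chr3:187650001-190550000, was code 3 throughout and lay between B2/B3 bins. Its 11 genes were SST (somatostatin), RTP2, BCL6 (a repressor of transcription in germinal centre B cells), LPP, TPRG1, TP63 (a factor of stratified epithelia), P3H2, CLDN16 and CLDN1 (tight junction proteins), TMEM207 and IL1RAP. LPP alone spans 738 kb. The run's density was 3.79 genes per Mb. The next, chr10:112300001-114950000, had 53 bins of code 3 and 19 genes, 7.17 per Mb. They include TCF7L2, the partner of β-catenin in Wnt signalling, ADRB1, a receptor for adrenaline, TDRD1, a germline protein, VTI1A and ABLIM1.

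Of the other long runs, chr1:218200001-220800000 had 52 bins of code 3 and 13 genes. Among them were TGFB2 (a secreted growth factor), EPRS1 and IARS2 (aminoacyl-tRNA synthetases), SLC30A10 (a manganese transporter) and MARK1 (a kinase). The run chr7:79000001-81500000 had 48 bins of code 4 and 2 of code 3, with GNAI1, GNAT3 (the taste G protein gustducin), CD36 (a fatty acid receptor) and SEMA3C (a guidance cue), 1.60 genes per Mb. The run chr5:92350001-94750000 had 36 bins of code 4 and 12 of code 3, and its genes include NR2F1 (an orphan nuclear receptor), POU5F2, KIAA0825, SLF1 and MCTP1. In 4 of these 5 runs both sides were B2/B3; the chromosome 5 run began beside bins with no code.

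The bins with the most genes were of another kind. chr5:140550001-140600000 and chr7:151050001-151100000 had 6 genes each. The former holds SRA1, APBB3, SLC35A4 and TMCO6, and the latter CDK5 (a kinase of neurons), SLC4A2 (an anion exchanger), FASTK, TMUB1 and AGAP3. The former count also includes LOC131768270, with the coordinates of SLC35A4, and LOC112267855, and the latter LOC128092247, which lies inside SLC4A2. The place of both bins above the next ones rests on such entries. chr6:27100001-27150000 holds 5 histone genes, H2BC11, H2AC11, H2BC12, H4C9 and H2AC12, and chr9:21200001-21250000 holds 5 interferon alpha genes, IFNA7, IFNA10, IFNA16, IFNA17 and IFNA14. chr11:57700001-57750000, 1 of several bins with 4, holds MED19, TMX2, SELENOH and BTBD18. Each of these 5 bins lay in a run of 3 to 10 bins with A2 on at least 1 side.

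Gene lists were placed by cluster and are given beside the 26.0% of all clustered genes that lay in V+VI. They are descriptions of where the genes lie, with no test. Of 28 lists, 11 had a higher share. Among DNA methylation factors 4 of 19 (21.1%) lay in V+VI, namely TET2, HELLS, TDG and MBD2, while 11 lay in A2 and 0 in B2/B3. Among chromosome architecture genes it was 10 of 30 (33.3%). They include LBR, which tethers chromatin to the lamina, LMNB1, a lamin, STAG1, a cohesin subunit, SMC4 and SMC2 of condensin, and EZH2, the Polycomb methyltransferase. Of these 10 genes 8 were in code 3, which holds 54.3% of all V+VI genes.

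Of germline genes, many of which carry promoter methylation in somatic cells, 6 of 20 (30%) lay in V+VI. MAEL, ASZ1 and TDRD1 act in transposon silencing, BOLL and DAZL bind RNA in germ cells, and SYCP3 is part of the synaptonemal complex. All 6 lay in code 3, between 43.5 Mb (MAEL) and 105 Mb (BOLL) from their centromeres. Imprinted genes numbered 9 of 28 (32.1%), among them ZDBF2, PLAGL1, IGF2R, SLC22A2, SLC22A3 and GRB10. These 9 lay in 6 runs, and IGF2R and the SLC22A transporters are neighbours.

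For the tissue of origin, 7 of 21 colon epithelium markers (33.3%) lay in V+VI, with 8 in A2, 5 in A1 and 1 in B2/B3. They include GPA33, FABP1, the carbonic anhydrases CA1 and CA2, CDH17, a cadherin of gut epithelium, and GUCY2C, the receptor of guanylin. Markers of blood, fibroblast, endothelium and neuron gave 5 of 23 (21.7%): CD14, GAD2, LUM, DCN and SNAP25. The exact binomial intervals of these 2 shares overlap (14.6 to 57.0% and 7.46 to 43.7%). Wnt genes, the pathway altered in most colorectal tumours, gave 8 of 30 (26.7%), including CTNNB1 (β-catenin), LEF1 (its DNA-binding partner), APC (part of the complex that degrades it), and the secreted inhibitors SFRP4, DKK1 and SFRP5.

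Gene families differed widely. V+VI held 0 of 103 keratin and keratin-associated genes, taken as a single list, and 0 of 53 clustered protocadherins, which lie in large arrays. The former were mostly in A1 (60) and the latter in B4 (41). It held 2 of 35 HOX genes, HOXD13 and HOXD12 in a single bin, with 30 in A2. Of histone genes 6 of 62 (9.68%) lay in V+VI, 5 of them in the chromosome 6 bin above and H4C16 elsewhere. Olfactory receptors gave 38 of 251 (15.1%), with 173 in B2/B3. Cytosolic ribosomal protein genes, which are highly expressed in all cells, gave 7 of 67 (10.4%), while mitochondrial ribosomal protein genes gave 17 of 67 (25.4%).

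At the other end, bitter and taste receptors gave 8 of 11 (72.7%), yet these lay in only 3 runs, and 11 of 28 autosomal members lay in clustered bins at all. They include TAS2R1, TAS2R3, TAS2R4, TAS2R5, TAS2R39 and TAS2R40. Collagen genes gave 14 of 35 (40%) in 13 runs, among them COL24A1, COL5A2, COL4A4, COL4A3, COL25A1 and COL23A1. C2H2 zinc finger genes gave 126 of 441 (28.6%) in 70 runs, of which 95 lay in code 4, while 151 of the 441 lay in B4. Most of these 95 lay on chromosome 19, where all 138 V+VI bins have code 4, so their code follows from the chromosome.

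The remaining lists lay closer to the 26.0% of all clustered genes or below it. Transporters gave 74 of 291 solute carrier genes (25.4%) and 12 of 46 SLCO and ABC genes (26.1%). Potassium channels gave 20 of 72 (27.8%), while glutamate and GABA receptors, the main fast receptors of neurons, gave 4 of 38 (10.5%) with 24 in B2/B3. The 4 were GABRR3, GABRP, GABRR1 and GRIN3A. Genes of core cell functions gave 7 of 39 for the proteasome (17.9%), 8 of 32 for NADH dehydrogenase of the respiratory chain (25%), 12 of 41 ubiquitin-specific peptidases (29.3%) and 10 of 48 kinesins and dyneins (20.8%). Cadherins gave 5 of 22 (22.7%), namely CDH17, CDH13, CDH2, CDH7 and CDH26, cytochrome P450 genes 11 of 50 (22%), and interleukins and chemokines 15 of 72 (20.8%).

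The clusters exist for the untreated DNMT1-AID library alone, so other libraries could only be set beside them by arm. The measure was the share of raw within-arm contacts that span at least 10 Mb. On 7p, an arm rich in V+VI, it was 12.7% untreated, 10.9% after 4 d of auxin and 13.3% after 10 d. On 5q it was 18.4%, 16.1% and 19.6%. On 19p, the arm with the least V+VI, it was 3.75%, 2.49% and 3.02%. At 10 d it was thus above the untreated value on 7p and 5q and below it on 19p.

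After 4 d all 38 arms were lower (100% of arms), with a median log2 ratio of -0.20 in the 5 arms richest in V+VI (range -0.22 to -0.18) and of -0.37 in the 5 poorest (-0.59 to -0.25). That gap of 0.18 was 0.099 over arms with at least 500 clustered bins. After 10 d 18.4% of arms were lower, 0 of the 5 richest and 3 of the 5 poorest, with medians of 0.080 and -0.080. After washout 7.89% of arms were lower, 0 of 5 and 2 of 5, with medians of 0.047 and 0.0072. In knockout cells 23.7% of arms were lower at 4 d, 0 of 5 and 4 of 5, with medians of 0.046 and -0.11. At 10 d the knockout value was 0% of arms, with medians of 0.29 and 0.10. Untreated knockout cells were lower than untreated DNMT1-AID cells on 100% of arms, with medians of -0.24 and -0.29. Over all 38 arms the medians in DNMT1-AID cells were -0.22 at 4 d, 0.045 at 10 d and 0.033 after washout. In knockout cells they were 0.053 at 4 d and 0.24 at 10 d, and between the untreated genotypes -0.28. Within a genotype, the median of all arms thus lay closer to the 5 richest arms than to the 5 poorest. The comparisons within a genotype share their untreated library.

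Across the 38 arms the V+VI share had a Pearson correlation with the log2 ratio of 0.70 at 4 d and 0.71 at 10 d in DNMT1-AID cells. Without 22q and 19p these were 0.52 and 0.55, and over the 17 arms of at least 80 Mb they were 0.65 and 0.26. After washout it was 0.49, and -0.058 over those 17 arms. In knockout cells it was 0.58 at 4 d (Spearman 0.28) and 0.70 at 10 d, and over the 17 arms 0.35 and 0.051. Between the untreated genotypes it was 0.13. Among the long arms alone the correlation was thus near 0 after washout and at 10 d in knockout cells. In DNMT1-AID cells at 4 d and 10 d the A1 share of the arm had correlations of -0.92 and -0.71 with the same ratios, and arm length 0.52 and 0.51. After washout A1 share had -0.38 and arm length 0.25. In knockout cells A1 share had -0.83 at 4 d and -0.48 at 10 d, and arm length 0.28 and 0.56. Between the untreated genotypes A1 share had 0.11 and arm length 0.65. Arms share libraries, and V+VI share, A1 share and arm length go together, so their parts in these differences cannot be told apart.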

How the data were processed

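Hi-C was done on 7 DLD-1 libraries, 1 per group. BWA and the build hg38 are named in the submitters' processing notes; of later steps, such as the features that were clustered, the sources used here say nothing. The deposited tables hold raw contact counts by arm and separation, and beside them a balanced signal by the authors, which entered no value printed here. For the untreated DNMT1-AID library the deposited files give each 50 kb bin's cluster name and codes in 17 columns. No code was given to 11467 of 57509 autosomal bins (4090 of them valid for contacts), among them all of chromosome 13. Also without a code were chr1:1-41750000 at the end of 1p and chr2:31500001-72050000 within 2p. Shares and positions on these arms cover their clustered bins only.

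Of 19126 autosomal protein-coding genes, 15931 (83.3%) lay in a clustered bin by leftmost coordinate, since the gene table has no strand. Promoters were placed by their own start site. Arms with at least 50 clustered bins were used, and contacts closer than 100 kb have no values. Named genes were all list members in V+VI where 6 or fewer, otherwise the first 6 by position, genes of the 5 longest runs and 5 most gene-dense bins; of the longest runs some genes are named, and some are not reported here. Members, lists and rules were chosen with earlier results of these data known. Intervals are 95% exact binomial (Clopper-Pearson), cover counting error only and treat bins or genes as independent. No test was made. Values were computed with python 3.11.15, pandas 2.3.3, numpy 2.4.6 and scipy 1.17.1. Run finding, run neighbours, the CpG ratio and the matching of some gene lists were tested on simulated data or made-up symbols. The other steps were not tested in that way.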

Additional observations from a re-analysis of the deposited data

How the results depend on the processing

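Of 35 alternatives, 15 moved a value and 20 did not, by its interval or spread or, for gene lists and flanks, by less than 1.5 times. Among those that did not, membership by codes 3 and 4 could give no other share, since neither code occurs outside the name. Lists above the share of all genes numbered 11, and 9 by start site, 8 by overlap, 11 without chromosome 8 and 12 without chromosome 19. The start-site count used only genes with a promoter sequence, which leave out chromosome 8, so both the gene set and the placing differ. The share of V+VI among clustered bins (29.2%) was 30.04% without the acrocentric chromosomes; taking the code with most V+VI bins at 3, 4, 5, 6, 7 and 8 clusters gave 42.0%, 41.2%, 31.2%, 18.97%, 19% and 15.1%. Single-bin runs (30.3%) were 21.1% when runs were joined over 1 bin. Position as the share in the distal part of the arm (54.8%) became 11.2% as the share within 10 Mb of the end, another quantity. Code 3 bins beyond 40 Mb (94.4%) were 97.1% in arms of at least 100 Mb. The share of genes (26.0%) was 29.4% counting every bin overlapped, 28.4% for all annotated genes and 27.3% without chromosome 19. The share in the main code of 5 clusters (86.0%) was 91.0% without run edges, and CpG-rich promoters (69.6%) were 73.7% at a ratio of 0.5. The 4 d difference between V+VI-rich and V+VI-poor arms (0.18 in log2) was 0.099 over arms with at least 500 clustered bins. It was counted as not moved because the spread allowed was the standard deviation of single arms (0.10), which is not the spread of such a difference. Alternatives for centromere distance, flanks, gene lists and start sites were chosen after seeing the data. Means of the other columns were not run because these hold codes. No paired analysis was possible because each group holds 1 library and the labels give no replicate numbers.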
